A study of Mus musculus with 12 samples.

Results

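The 8 genes described here carry arginine from the cell surface to nitric oxide or to polyamines. They were chosen by name: Slc7a2 for uptake, Nos2 and Gch1 for nitric oxide, Ass1 and Asl for the recycling of citrulline to arginine, Arg1 and Arg2 for the cleavage of arginine, and Odc1 for the step from ornithine to polyamines. All 8 were among the 25700 genes of the count table, and all 8 passed the filter on low counts that left 13844 genes for testing. Nos2 had only 3 to 14 reads in each saline library and passed because of its anti-CD40 libraries.

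The libraries came from mouse liver cells left after hepatocytes were spun out of collagenase digests, enriched with beads for F4/80, a surface protein of macrophages. Mice were Spta wt/wt (here WT, littermates per the series' design text) or Spta sph/sph, the latter carrying on both chromosomes the sph allele of the erythroid alpha-spectrin gene, which makes red cells fragile. By intraperitoneal injection they were given either saline or, for 30 h, an antibody that activates CD40, a receptor through which T cells stimulate macrophages (anti-CD40, 20 mg/kg). Genotype and treatment made 4 groups of 3 libraries, which the design text counts as 3 mice each. All mice are labelled male, 8 to 10 weeks old. The allele was not restricted to a cell type, and bead enrichment leaves other liver cells in the preparation.

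Arginine enters macrophages through cationic amino acid carriers, of which SLC7A2 (CAT2) is the one tied to activation. Inducible nitric oxide synthase, encoded by Nos2, turns arginine into citrulline and nitric oxide and needs tetrahydrobiopterin, whose synthesis starts with GTP cyclohydrolase (Gch1), while argininosuccinate synthase and lyase (Ass1, Asl) turn the citrulline back into arginine. The arginases ARG1 (cytosolic) and ARG2 (mitochondrial) split arginine into urea and ornithine, from which ornithine decarboxylase (Odc1) makes putrescine, the parent of the polyamines. Nos2 and Arg1 are the textbook markers of inflammatory and alternative activation of mouse macrophages, and Arg1, Ass1 and Asl are also abundant in hepatocytes, where they belong to the urea cycle.

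Library totals ran from 14991250 to 18984067 counts, and letters A to C name the libraries of a group in column order without pairing them. Column names describe the control mice as heterozygous, and they are called WT here after the labels. The A library of every group had 0 counts over 4 Y-linked genes against 2436 to 4055 counts in each of the other 8, which goes against the label of male mice. Values without these 4 libraries are therefore given beside each called result that lost its call without them. In the column names the A libraries of both saline groups share a number, as do those of both anti-CD40 groups, and what it stands for is not given in the sources used here. The macrophage marker list (8 genes, among them Csf1r and Cd68) summed to between 6994 and 16108 CPM (reads scaled to a shared library total with TMM factors) in all 12 libraries. Of its 8 genes, 5 were called lower with anti-CD40 in WT and 0 in sph/sph, beside 19.7% and 0.202% of all genes tested. Under anti-CD40 4 of the 8 were higher in sph/sph than in WT, beside 11.5% of all genes tested. The list of 10 Kupffer cell markers, genes of the resident liver macrophage, summed to 33877 to 40723 CPM in WT saline, 28160 to 41895 in sph/sph saline and 14003 to 20680 in sph/sph anti-CD40, but to 228 to 548 CPM in WT anti-CD40. In such bulk samples fewer cells of a type and less RNA per cell cannot be told apart. The 10 monocyte markers summed to at most 404 CPM in the saline libraries and to 534 to 3241 CPM in the anti-CD40 libraries. Of these, 6 of 10 were called higher with anti-CD40 in WT and 2 in sph/sph, beside 19.4% and 0.578% of all genes tested. The 13 T and NK cell markers summed to at most 26.2 CPM in saline, 196 to 1493 CPM in WT anti-CD40 and 5.18 to 121 CPM in sph/sph anti-CD40. In WT 12 of the 13 rose, beside 19.4% of all genes tested. Sums for dendritic cell markers were 227 to 420 CPM in WT anti-CD40 and at most 133 CPM in each other library. The part of these cells in the values of the 8 genes was not tested.

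Anti-CD40 changed 4 of the 8 genes in WT mice: Nos2, Gch1 and Odc1 rose and Arg2 fell. A gene was called at an adjusted p under 0.05 by edgeR's quasi-likelihood test, with Benjamini-Hochberg correction over the 13844 genes, and this called 39.2% of all genes tested in WT (19.4% upwards and 19.7% downwards). In sph/sph 0 of the 8 genes were called by edgeR, with 0.78% of all genes called (0.578% upwards and 0.202% downwards). Here 2 of the 8 had an unadjusted p under 0.05, and DESeq2 called 2 and limma-voom 0. The genotypes differed in Odc1 under saline (1 of 8, higher in sph/sph; all genes 2.04%, with 1.6% higher and 0.433% lower). Under anti-CD40 0 of the 8 differed by edgeR (all genes 17.7%, with 11.5% higher and 6.19% lower), where 3 had an unadjusted p under 0.05, DESeq2 called 2 and limma-voom 1. The interaction, which subtracts the WT response from the sph/sph response, was called for Odc1 (1 of 8, below 0; all genes 4.3%, with 3.18% above and 1.12% below 0). The median log2 fold change of the 8 genes was 0.80 for anti-CD40 in WT and -0.81 for sph/sph against WT under anti-CD40, beside 0.05 and 0.08 over all genes tested. The contrasts share groups, so their values are set side by side and are no independent support for each other.

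**Figure D1:**
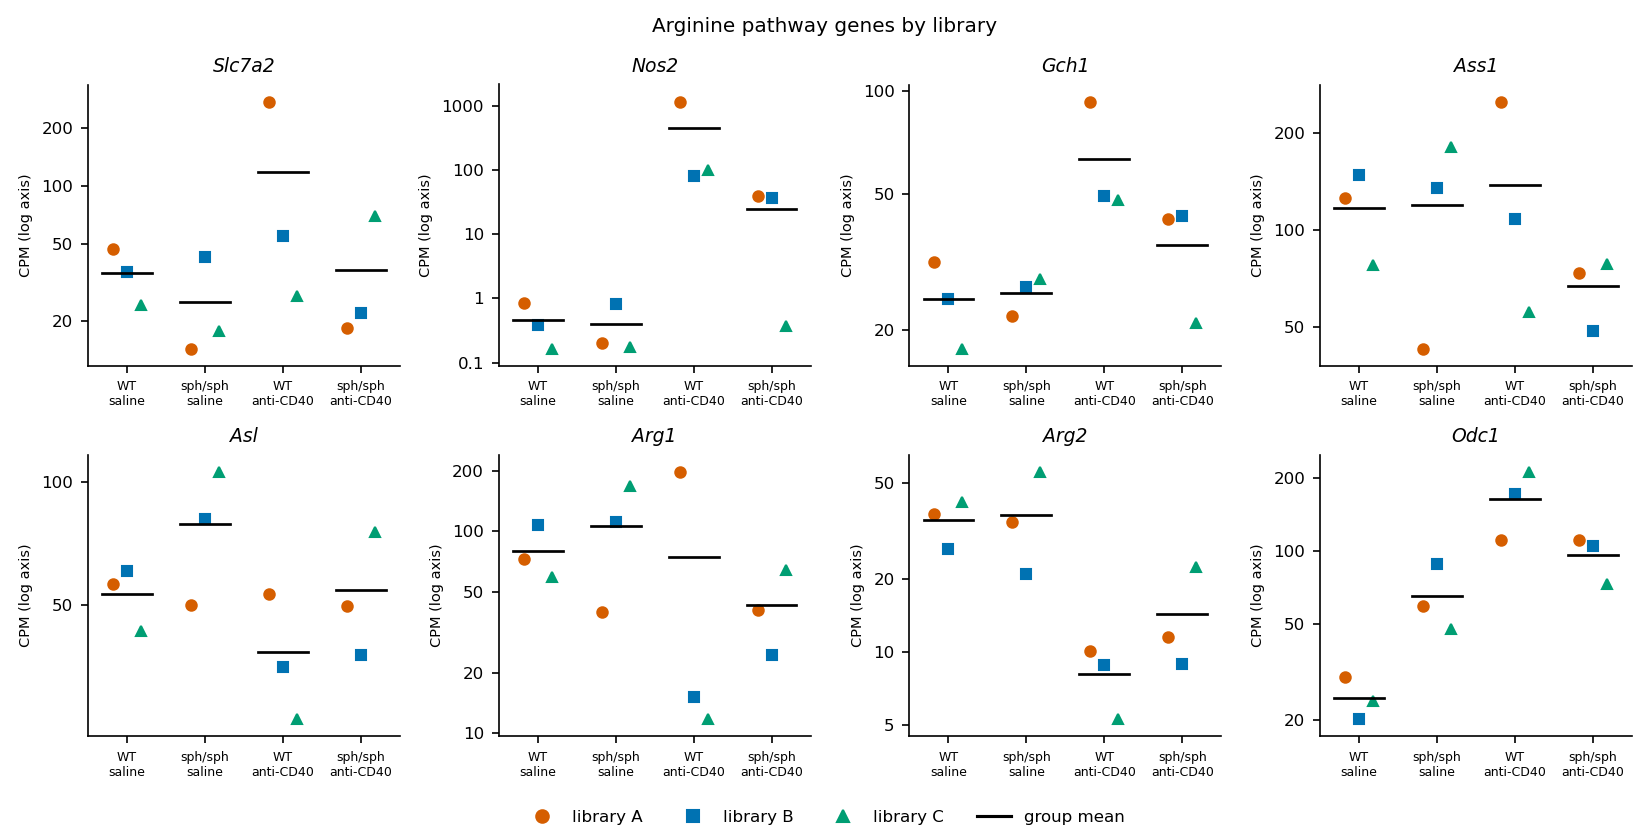
Level of each of the 8 genes in each library, in CPM on a log axis, with the mean of each group of 3 as a bar. Nos2 rises out of the saline range in 5 of 6 anti-CD40 libraries, Odc1 is lowest in WT saline, and library A of WT anti-CD40 stands above its group in Slc7a2, Nos2, Ass1 and Arg1.

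**Figure D2:**
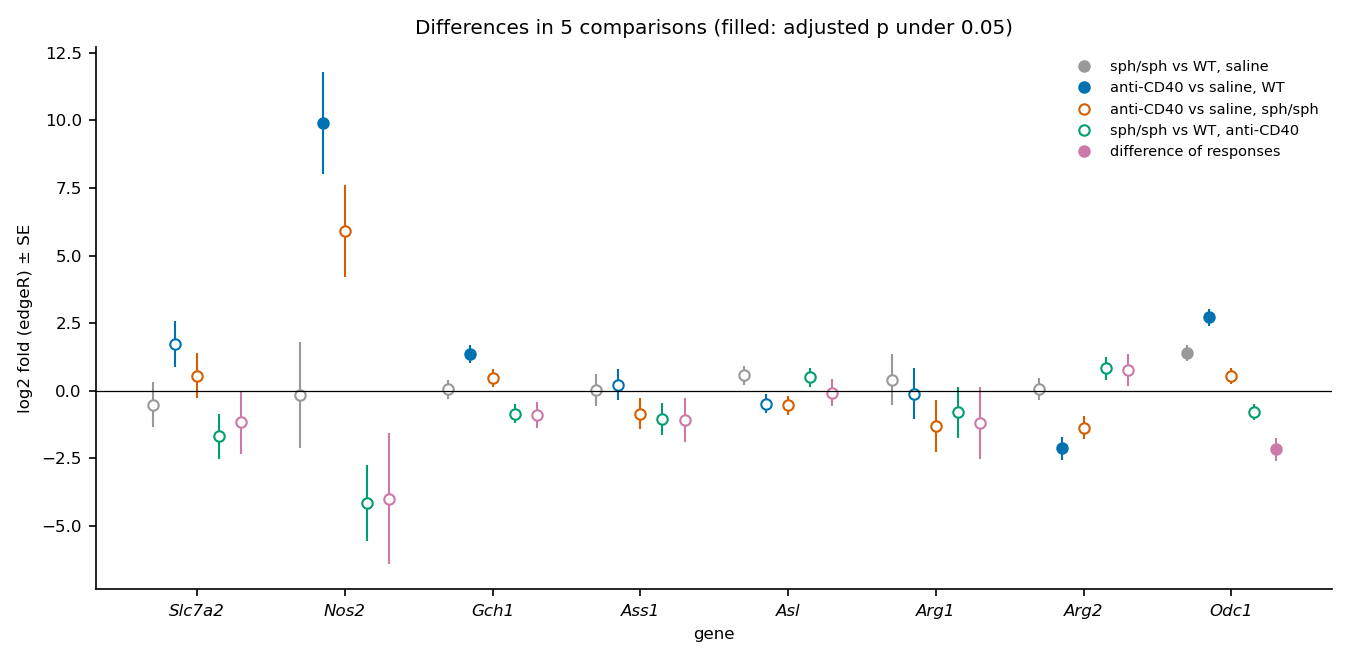
Log2 fold change of each gene in each comparison from edgeR, with standard errors as bars and filled points for an adjusted p under 0.05. The bars of Nos2, Arg1 and Slc7a2 are the longest, and 6 points are filled, of which 4 belong to anti-CD40 in WT and 2 to Odc1 in other comparisons.

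Slc7a2 (chr8:40862396-40922308, + strand of GRCm38), the arginine carrier, had no called change. Its levels were 46.9, 35.6 and 24.1 CPM in WT saline libraries A to C and 14.4, 42.7 and 17.7 CPM in sph/sph saline. Under anti-CD40 they were 273, 55.2 and 26.8 CPM in WT and 18.4, 21.9 and 70.3 CPM in sph/sph. WT library A stood at 6.67 times the mean of the other libraries of its group, and of the other 5 anti-CD40 libraries 3 lay within the range of the saline libraries and 2 above it. The log2 fold change with anti-CD40 was 1.73 ± 0.84 (SE) in WT (edgeR adjusted p = 0.123) and 0.20 without library A (adjusted p = 0.829). With the log2 hepatocyte marker sum as a covariate it was 3.00 (adjusted p = 0.00187), and the difference between genotypes under anti-CD40 was then -2.74 (adjusted p = 0.00433) against -1.68 (adjusted p = 0.2) without it. Without WT library A that difference was -0.15 (adjusted p = 0.909). Of the 9135 exonic bases of Slc7a2, 635 are shared with Gm26584, a noncoding gene on the other strand. Whether counting used strand is not given in the sources used here, so reads in the shared bases cannot be assigned to either gene.

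The list of 7 other arginine carriers gave 2 rising and 3 falling genes with anti-CD40 in WT, where 19.4% of all genes tested rose and 19.7% fell. Slc7a1 (CAT1), the constitutive carrier, was at 7.52, 8.52 and 4.49 CPM in WT saline and 41.4, 51.6 and 40.7 CPM in WT anti-CD40, and at 22.3, 27.7 and 29.2 CPM in sph/sph anti-CD40. The 3 WT anti-CD40 libraries lay above all others, and Slc7a1 rose by 2.70 ± 0.40 on the log2 scale in WT (adjusted p = 0.00067, edgeR). Slc7a6, an exchanger of cationic and neutral amino acids, rose by 1.88 ± 0.28 in WT (adjusted p = 0.000658) and by 1.65 ± 0.28 in sph/sph (adjusted p = 0.0307), the latter being the only one of the 48 pathway genes tested that was called for anti-CD40 in sph/sph. That call held in 4 of the 12 fits that left out 1 library each, namely those without WT anti-CD40 A, B or C or without sph/sph anti-CD40 C, and its adjusted p reached 0.184 without sph/sph saline C. Without the 4 libraries that lack Y-linked counts it was 1.92 (adjusted p = 0.399). Slc7a7, a subunit of an exporter of cationic amino acids, fell by 1.53 on the log2 scale in WT (adjusted p = 0.000696). Under anti-CD40 it was higher in sph/sph than in WT by 0.89 ± 0.22 (adjusted p = 0.0214), a call lost without WT anti-CD40 B or C or sph/sph anti-CD40 B (adjusted p 0.0715 to 0.0814).

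Nos2 (chr11:78920787-78960254, + strand) was barely detected in saline and stood far above that level in 5 of 6 anti-CD40 libraries. In saline it was at 0.835, 0.385 and 0.166 CPM in WT and at 0.200, 0.831 and 0.175 CPM in sph/sph. Under anti-CD40 it was at 1144, 79.1 and 98.8 CPM in WT and at 38.6, 35.9 and 0.378 CPM in sph/sph. All 3 WT libraries lay above all 3 sph/sph libraries, and sph/sph library C lay within the saline range.

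The WT response of Nos2 was 9.91 ± 1.90 on the log2 scale (95% interval 5.70 to 14.11, adjusted p = 0.00289, edgeR). Without library A, which held 12.9 times the mean level of libraries B and C, it was 7.60 (adjusted p = 0.00449), and limma-voom gave 9.07 with an adjusted p of 0.0687. In sph/sph the fitted change was 5.91 ± 1.70 (adjusted p = 0.107), and without library C it was 6.48 (adjusted p = 0.0116). DESeq2 called it with all libraries (adjusted p = 0.00143). The difference between genotypes under anti-CD40 was -4.15 ± 1.40 (95% interval -7.26 to -1.03, adjusted p = 0.0683), or -1.83 (adjusted p = 0.306) without WT library A. That difference was called by DESeq2 (adjusted p = 0.014) and by limma-voom (adjusted p = 0.0453). The interaction was -4.00 ± 2.42 with an interval of -9.37 to 1.38 (adjusted p = 0.415), so a difference between the responses was not resolved with 3 libraries per group.

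Gch1 (chr14:47153895-47189413, - strand), which sets the supply of tetrahydrobiopterin, rose with anti-CD40 in WT. Its levels were 31.6, 24.7 and 17.7 CPM in WT mice on saline, 21.9, 26.7 and 28.2 CPM in sph/sph mice on saline, 93.0, 49.4 and 48.0 CPM in WT anti-CD40 and 42.1, 43.2 and 21.0 CPM in sph/sph anti-CD40. The WT anti-CD40 libraries lay above all 9 others, and sph/sph library C again lay within the saline range, as for Nos2. The change in WT was 1.36 ± 0.35 on the log2 scale (adjusted p = 0.0114, edgeR) and 0.98 (adjusted p = 0.0368) without WT library A. Without the 4 libraries that lack Y-linked counts it was 1.20 (adjusted p = 0.0582). In sph/sph it was 0.47 ± 0.34 (adjusted p = 0.451), and the interaction of -0.90 ± 0.48 had an interval of -1.97 to 0.17 (adjusted p = 0.354).

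Promoter sequences from RefSeq (GRCm38.p6) were at hand for 3 of the 8 genes, and those of Gch1 and Odc1 are shown because both genes rose with anti-CD40 in WT. They run 5′ to 3′ up to the gene's start, with matches to the searched motifs on either strand in capitals. The Gch1 sequence is chr14:47189414-47189663 on the - strand, and the Odc1 sequence is chr12:17544623-17544793 on the + strand, which ends where the GENCODE gene model begins.
Gch1: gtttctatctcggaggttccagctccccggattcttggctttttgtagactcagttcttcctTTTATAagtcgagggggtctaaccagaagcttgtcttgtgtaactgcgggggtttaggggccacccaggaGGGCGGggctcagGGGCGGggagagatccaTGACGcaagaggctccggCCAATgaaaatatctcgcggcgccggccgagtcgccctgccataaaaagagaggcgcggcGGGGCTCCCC
Odc1: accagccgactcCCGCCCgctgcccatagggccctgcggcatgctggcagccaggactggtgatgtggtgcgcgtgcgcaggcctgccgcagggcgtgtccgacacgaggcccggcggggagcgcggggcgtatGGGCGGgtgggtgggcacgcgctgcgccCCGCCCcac
The motifs were the GC box GGGCGG, the CCAAT box CCAAT, the TATA box TATAAA, the E-box CACGTG, the interferon motif GAS (TTCNNNGAA), the cAMP response element TGACGTCA with its core TGACG, which it contains, and the NF-kB consensus, each searched over 250 bases before the RefSeq start. Gch1 held 2 GC boxes, 1 CCAAT box, 1 TATA box on the other strand that began 188 bases before the start, 1 cAMP core and 1 NF-kB match, whose last base is the last one shown. Odc1 held 4 GC boxes, of which 3 fall in the part shown, and 1 cAMP core beyond that part. Of 32851 RefSeq promoter windows of this length, 32.7% hold a GC box, 33.8% a CCAAT box, 12.4% a TATA box, 17.8% a cAMP core and 7.25% an NF-kB match. Neither promoter had a match to the E-box (6.02% of windows), GAS (7.02%) or the full cAMP element (1.55%). These matches describe letters and were not tied to binding of any factor.

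With anti-CD40 in WT 19.7% of all genes tested fell and 19.4% rose by edgeR. Of 6 other genes of tetrahydrobiopterin supply, 3 fell and 0 rose with anti-CD40 in WT by edgeR (1 rose at an unadjusted p under 0.05, 1 by DESeq2 and 0 by limma-voom). The falls were in Pts, which acts directly after Gch1, by 1.11 on the log2 scale (adjusted p = 0.000972), Qdpr, which regenerates the cofactor, by 0.72 (adjusted p = 0.0134) and Pcbd1, also of the regeneration path, by 2.33 (adjusted p = 0.0101). With the hepatocyte covariate Pts kept its call, and the values were -0.69 for Qdpr (adjusted p = 0.0709) and -1.60 for Pcbd1 (adjusted p = 0.094). They were, without the 4 libraries that lack Y-linked counts, -0.72 for Qdpr (adjusted p = 0.0777) and -2.37 for Pcbd1 (adjusted p = 0.0842). Under anti-CD40 Pts was at 24.2, 20.9 and 19.6 CPM in WT and 39.1, 28.0 and 42.2 CPM in sph/sph. It was higher in sph/sph by 0.76 ± 0.17 on the log2 scale (adjusted p = 0.0148), lost without WT anti-CD40 B (adjusted p = 0.0519) or C (adjusted p = 0.0593) and without the 4 libraries (0.80, adjusted p = 0.104).

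On the list of 9 genes for other nitric oxide synthases, their control and nitric oxide sensing, 2 rose and 1 fell with anti-CD40 in WT, and 2 were lower in sph/sph than in WT under anti-CD40. Of all genes tested 19.4% rose and 19.7% fell in WT, and 6.19% were lower in sph/sph under anti-CD40. Gucy1a1, a subunit of the nitric oxide receptor guanylate cyclase, fell by 3.56 on the log2 scale (adjusted p = 0.017, edgeR), a call lost without WT saline B (adjusted p = 0.0569) or WT anti-CD40 B (adjusted p = 0.062). Stellate cell markers moved with it: their 8 genes, of which 3 fell with anti-CD40 in WT, summed to 176 to 1040 CPM in WT saline and 108 to 157 CPM in WT anti-CD40, and their part in the Gucy1a1 level was not tested. Prmt1, the main protein arginine methyltransferase, rose by 1.08 ± 0.21 on the log2 scale (adjusted p = 0.00313). Ddah2, of the family that degrades the methylarginine inhibitors of nitric oxide synthase, was at 19.5, 63.8 and 68.3 CPM in WT anti-CD40 and at 2.28, 3.40 and 13.5 CPM in sph/sph anti-CD40. The sph/sph level was lower by a log2 difference of -2.97 ± 0.79 (adjusted p = 0.0272), which was lost without WT anti-CD40 B, WT anti-CD40 C, sph/sph anti-CD40 A or sph/sph anti-CD40 B (adjusted p 0.07 to 0.0859). Its rise with anti-CD40 in WT, 2.24 ± 0.76 (adjusted p = 0.0398), was lost without any 1 of the WT saline libraries, sph/sph saline A or WT anti-CD40 B or C (adjusted p 0.0551 to 0.123). Without the 4 libraries that lack Y-linked counts the values of Ddah2 were -2.96 between genotypes (adjusted p = 0.0865) and 2.32 in WT (adjusted p = 0.088). Ddah1, of the same family, was at 2.73, 15.9 and 19.8 CPM in WT anti-CD40 and 1.11, 1.92 and 4.26 CPM in sph/sph anti-CD40, and library A of WT lay within the sph/sph range. Its log2 difference of -2.39 ± 0.68 (adjusted p = 0.036) held in 4 of the 12 fits with 1 library left out, those without sph/sph saline B or C, WT anti-CD40 A or sph/sph anti-CD40 C. Endothelial markers moved with these values: their 8 genes summed to 974 to 4059 CPM in WT anti-CD40 and to 283 to 2084 CPM in sph/sph anti-CD40. Nos3, the endothelial synthase, named after its values were seen, was at 15.8, 132 and 139 CPM in the former and 1.17, 3.25 and 18.1 CPM in the latter. Its genotype difference was not called by edgeR, whose 2 calls on this list were Ddah1 and Ddah2. DESeq2 called 4 of the 9 genes lower in this comparison and limma-voom 1. The part of endothelial RNA in these genes was not tested.

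Ass1 (chr2:31470207-31520672, + strand) and Asl (chr5:130011258-130029247, - strand), which rebuild arginine from citrulline, had no called change in any comparison. Ass1 was at 125, 148 and 77.7 CPM in WT mice on saline, 42.8, 135 and 181 CPM in sph/sph mice on saline, 250, 108 and 55.8 CPM in WT anti-CD40 and 73.4, 48.7 and 78.6 CPM in sph/sph anti-CD40. All 4 groups overlapped. The log2 change in WT was 0.23 ± 0.58 (adjusted p = 0.77, edgeR), and -0.52 (adjusted p = 0.484) without library A, so its direction turned on that library. Asl varied less, from 26.2 CPM (WT anti-CD40 C) to 106 CPM (sph/sph saline C), with changes of -0.48 ± 0.35 in WT (adjusted p = 0.293) and -0.54 ± 0.35 in sph/sph (adjusted p = 0.391).

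Arg1 (chr10:24915221-24927484, - strand) was spread so widely within groups that leaving out 1 library could turn its direction. It was at 72.8, 108 and 59.3 CPM in WT mice on saline and at 40.1, 111 and 169 CPM in sph/sph mice on saline. Under anti-CD40 it was at 196, 15.2 and 11.8 CPM in WT and at 40.7, 24.4 and 64.0 CPM in sph/sph. WT library A was the highest and libraries B and C the lowest of all 12.

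With all libraries the change of Arg1 with anti-CD40 in WT was -0.11 ± 0.94 (95% interval -2.19 to 1.98, adjusted p = 0.941, edgeR). Without WT anti-CD40 A it was -2.57 (adjusted p = 0.0122), and without the 4 libraries that lack Y-linked counts, which include it, -2.64 (adjusted p = 0.0237). The uncalled value turned positive without WT saline B (0.12), WT anti-CD40 B (0.35) or WT anti-CD40 C (0.37). The difference of sph/sph from WT under anti-CD40 turned from -0.79 ± 0.95 (adjusted p = 0.617) to 1.68 (adjusted p = 0.083) without that library. In sph/sph the change with anti-CD40 was -1.31 ± 0.95 (adjusted p = 0.45).

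Hepatocyte RNA was present in every library and moved with some of these values. The 26 hepatocyte markers summed to 4146 to 6870 CPM in WT saline, 4467 to 12548 in sph/sph saline, 1309 to 4046 in WT anti-CD40 and 3519 to 7281 in sph/sph anti-CD40. With anti-CD40 in WT 8 of the 26 fell (30.8%) and 0 rose by edgeR, beside 19.7% and 19.4% of all genes tested. At an unadjusted p under 0.05, by DESeq2 and by limma-voom 0 rose as well. Of the defining markers, albumin (Alb) ran from 260 to 5148 CPM, and Apoa1 and Ttr were above 0 in every library too. Cps1, the entry enzyme of the urea cycle, was at 98.6, 84.1 and 43.7 CPM in WT saline and 12.5, 6.98 and 6.40 CPM in WT anti-CD40, and Otc, its next enzyme, at 20.2, 40.1 and 23.4 against 3.32, 2.20 and 1.62 CPM.

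Relative to these markers Arg1 and Ass1 were highest in WT anti-CD40 library A. Per 1000 CPM of hepatocyte markers, Arg1 was at 48.5 CPM in that library against 5.37 and 8.99 CPM in libraries B and C, and between 8.76 and 37.8 CPM in the 6 saline libraries. Cps1 per 1000 CPM of hepatocyte markers was at 3.09 CPM in library A, beside 2.47 and 4.89 CPM in B and C. Cps1 and Otc were lower in all 3 WT anti-CD40 libraries than in WT saline. The hepatocyte marker sum of library A was the highest of its group, at 4046 CPM against 2822 and 1309 CPM in B and C. In sph/sph saline C both Arg1 (169 CPM) and Cps1 (184 CPM) were high, though its hepatocyte marker sum of 4467 CPM was the lowest of its group. Scaled to 1000 CPM of the markers, they were at 37.8 and 41.1 CPM there. The marker sum thus did not follow these 2 genes in that library, which limits the scaled values and the covariate fits. Per 1000 CPM of hepatocyte markers, Ass1 was at 61.7, 38.2 and 42.6 CPM in WT anti-CD40 and at 20.5, 13.8 and 10.8 CPM in sph/sph anti-CD40. With the marker sum as a covariate the change of Arg1 in WT was 0.69 (adjusted p = 0.617) and that of Ass1 0.86 (adjusted p = 0.322). How much of the Arg1 and Ass1 reads came from hepatocytes was not tested.

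**Figure D3:**
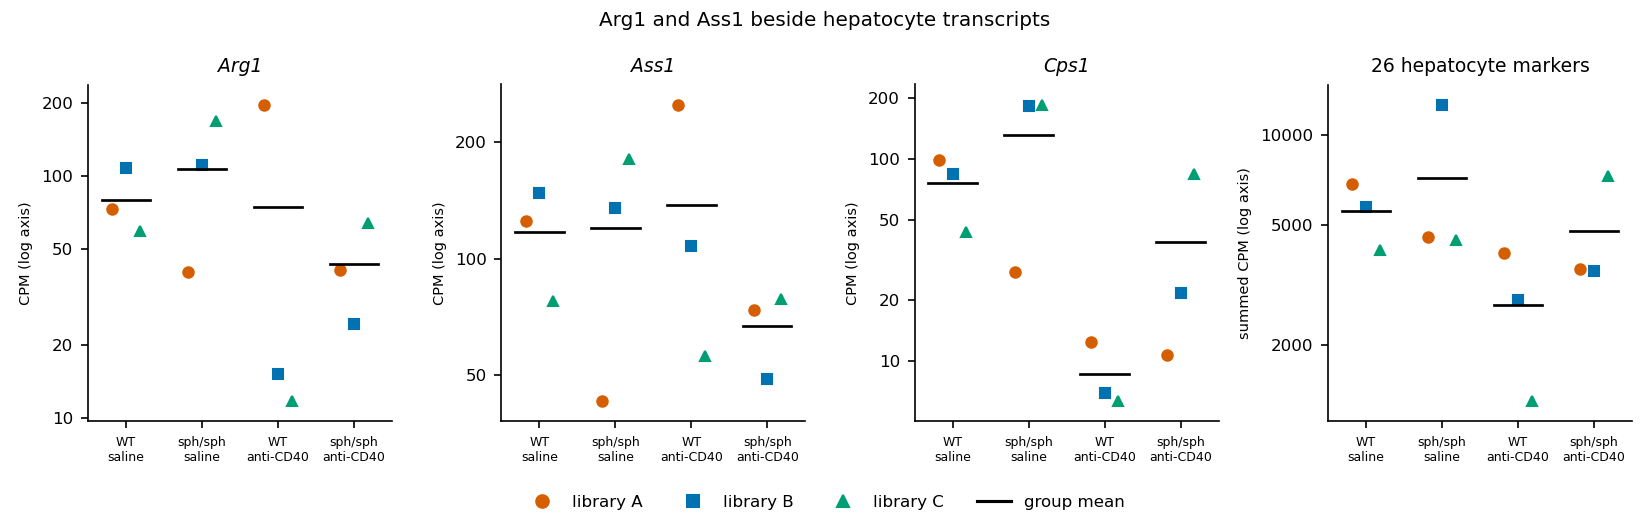
Arg1, Ass1, Cps1 and the sum of 26 hepatocyte markers in each library, in CPM on log axes, with group means as bars. Library A of WT anti-CD40 is the highest of 12 for Arg1 and Ass1 at a marker sum of 4046 CPM. Cps1 is at 12.5, 6.98 and 6.40 CPM in libraries A to C of that group.

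Arg2 (chr12:79130777-79156301, + strand), the mitochondrial arginase, fell with anti-CD40 in WT. It was at 37.3, 26.8 and 41.7 CPM in WT mice on saline, 34.5, 21.1 and 55.6 CPM in sph/sph mice on saline, 10.1, 8.82 and 5.27 CPM in WT anti-CD40 and 11.5, 8.87 and 22.6 CPM in sph/sph anti-CD40. In WT the groups did not overlap, and in sph/sph library C overlapped the saline range. Arg2 fell by 2.13 ± 0.44 on the log2 scale in WT (adjusted p = 0.00428, edgeR), a call that held in all 12 fits with 1 library left out. Without the 4 libraries that lack Y-linked counts the value was -2.29 (adjusted p = 0.0545). In sph/sph it was -1.37 ± 0.43 (adjusted p = 0.123), and -1.87 (adjusted p = 0.0182) without library C. DESeq2 called the sph/sph fall with all libraries (-1.41, adjusted p = 0.0244). The interaction was 0.76 ± 0.60 (95% interval -0.57 to 2.09, adjusted p = 0.548). Of the 1428 exonic bases of Arg2, 285 are shared with Vti1b and 116 with the antisense gene Gm48780, both on the other strand. As for Slc7a2, reads in the shared bases cannot be assigned, and their part in the Arg2 level was not tested. The Vti1b level was 51.1 ± 5.0 and 61.9 ± 8.9 CPM (SD, n = 3) in WT and sph/sph mice on saline. With anti-CD40 it was 62.6 ± 4.8 and 61.1 ± 12.2 CPM in WT and sph/sph mice. These means lay between 51.1 and 62.6 CPM.

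Nos2 and Arg1, which compete for arginine, were compared within each library per kilobase of annotated exon, a measure chosen after the values were seen. The share of Nos2 in the sum of Nos2 and Arg1 was 74.6%, 72.5% and 80.9% in WT anti-CD40 and 32.4%, 42.6% and 0.297% in sph/sph anti-CD40. In the 6 saline libraries it was at most 0.576%. Nos2 thus exceeded Arg1 per kilobase in all 3 WT anti-CD40 libraries, whose levels of each gene differed by over 10 times between library A and the others, and Arg1 exceeded Nos2 in all 3 sph/sph anti-CD40 libraries. Hepatocytes also express Arg1, and their 26 markers summed to 1309 to 4046 CPM in WT anti-CD40 and 3519 to 7281 CPM in sph/sph anti-CD40. The part of hepatocyte RNA in this share was not tested, so the share is that of the whole preparation. An exact permutation test of 3 libraries against 3 cannot go below a two-sided p of 0.1, and none was run on this measure. By the length of the longest coding transcript the mean WT share was 68.9% instead of 76.0%.

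**Figure D4:**
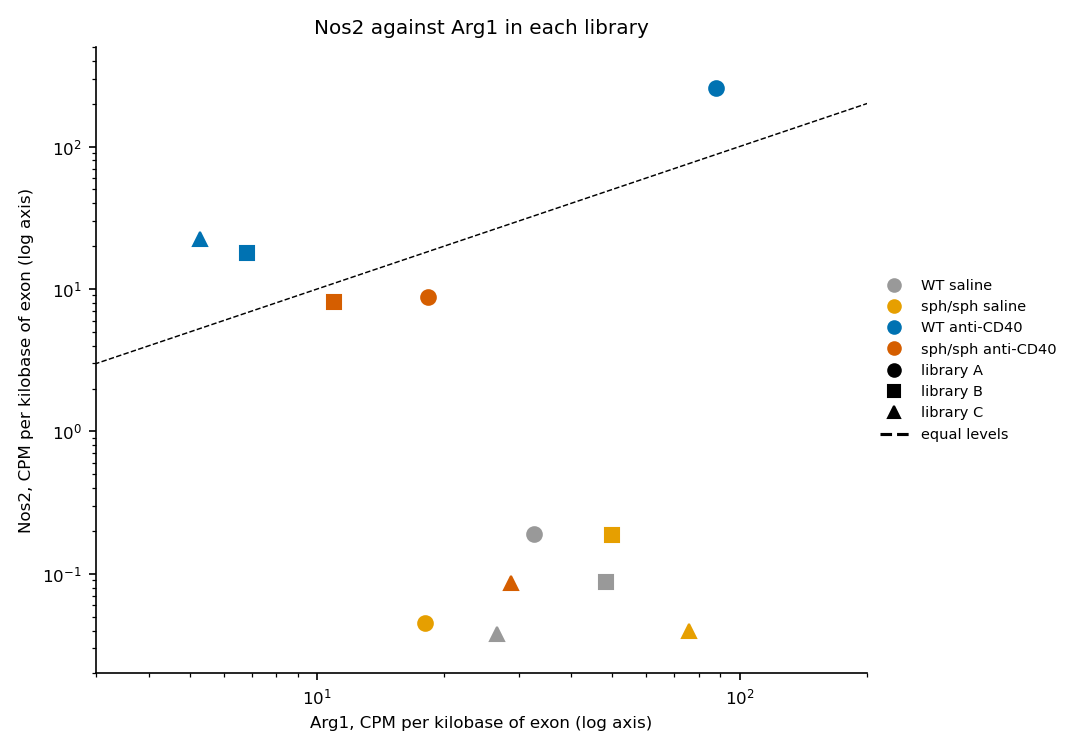
Nos2 against Arg1 in each library, both in CPM per kilobase of exon on log axes, with a dashed line where they are equal. The 3 WT anti-CD40 libraries lie above the line, and the 3 sph/sph anti-CD40 libraries and all 6 saline libraries lie below it.

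Odc1 (chr12:17544794-17551505, + strand), the rate-limiting enzyme of polyamine synthesis, had the smallest standard errors of the 8 genes, and its response differed between genotypes. It was at 30.2, 20.2 and 23.9 CPM in WT mice on saline and 59.0, 87.9 and 47.7 CPM in sph/sph mice on saline. Under anti-CD40 it was at 110, 171 and 210 CPM in WT and 111, 104 and 72.7 CPM in sph/sph. In saline the genotypes did not overlap. Every WT anti-CD40 library lay above every saline library, whereas sph/sph anti-CD40 library C lay within the range of sph/sph saline.

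Odc1 rose by 2.73 ± 0.31 on the log2 scale with anti-CD40 in WT (adjusted p = 0.000169, edgeR), a call that held in all 21 alternative fits. In sph/sph the change was 0.56 ± 0.29 (95% interval -0.09 to 1.22, adjusted p = 0.293). The interaction was -2.16 ± 0.42 (adjusted p = 0.0189), lost without WT saline B (adjusted p = 0.0584), WT saline C (adjusted p = 0.0577) or WT anti-CD40 B (adjusted p = 0.0522), and without the 4 libraries that lack Y-linked counts (-2.72, adjusted p = 0.0647).

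Under saline Odc1 was higher in sph/sph by 1.39 ± 0.30 on the log2 scale (adjusted p = 0.0439). This call held in 2 of the 12 fits that left out 1 library, those without WT anti-CD40 A or sph/sph anti-CD40 C. In the other 10 the log2 difference was 1.11 to 1.57 and the adjusted p 0.0507 to 0.225. It was 1.62 (adjusted p = 0.204) without the 4 libraries that lack Y-linked counts, and 1.40 (adjusted p = 0.0856) with a term for each of the 2 numbers shared by column names. Erythroid markers moved with the genotype: their 11 genes summed to 29.0 to 113 CPM in WT saline and 2318 to 2984 CPM in sph/sph saline, and to 12.4 to 74.6 and 1791 to 5823 CPM under anti-CD40. The part of erythroid RNA in the Odc1 level was not tested. Under anti-CD40 the genotype difference was -0.77 ± 0.29 (adjusted p = 0.0996), and -0.99 (adjusted p = 0.0383) without WT anti-CD40 A. DESeq2 called this difference with all libraries (-0.81, adjusted p = 0.04998).

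Of 7 tested genes that restrain, break down or move polyamines, 3 fell with anti-CD40 in WT, beside 19.7% of all genes tested. Between genotypes under anti-CD40 11.5% of all genes tested were higher in sph/sph and 6.19% lower. On the list of antizymes, catabolic enzymes and polyamine transporters (7 of 8 tested), 3 fell and 0 rose in WT by edgeR (0 rose also at an unadjusted p under 0.05, by DESeq2 and by limma-voom), and all 3 were higher in sph/sph than in WT under anti-CD40, where 1 other gene of the list, Oaz2, was lower. Paox, the peroxisomal polyamine oxidase, was at 58.5, 54.8 and 54.6 CPM in WT mice on saline, 59.9, 46.5 and 68.5 CPM in sph/sph mice on saline, 3.99, 4.09 and 2.71 CPM in WT anti-CD40 and 28.4, 31.0 and 33.7 CPM in sph/sph anti-CD40. The 4 groups fell into 3 separate levels with no overlap between them, saline of both genotypes sharing the highest.

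Paox fell by 3.96 ± 0.20 on the log2 scale in WT (adjusted p = 2.43e-06, edgeR), and its interaction of 3.05 ± 0.26 (adjusted p = 0.000222) was called in all 12 fits with 1 library left out. Sat1, the spermidine and spermine acetyltransferase that starts their breakdown, fell by 2.55 ± 0.32 in WT (adjusted p = 0.000285), from 963, 784 and 931 CPM to 233, 110 and 115 CPM. Atp13a2, a lysosomal polyamine exporter, fell by 1.94 ± 0.22 (adjusted p = 0.000146). Under anti-CD40 the log2 differences of sph/sph from WT were 3.11 ± 0.20 for Paox (adjusted p = 1.98e-05), 1.72 ± 0.31 for Sat1 (adjusted p = 0.00475) and 1.32 ± 0.21 for Atp13a2 (adjusted p = 0.00245). These calls held in all 12 fits with 1 library left out. They moved with the Kupffer cell marker list, whose part in these genes was not tested. Of its 10 genes, 10 fell with anti-CD40 in WT, 10 were higher in sph/sph under anti-CD40 and 10 were called above 0 in the interaction. Over all genes tested these shares were 19.7%, 11.5% and 3.18%. Oaz2, an antizyme that targets ornithine decarboxylase for degradation, was the only pathway gene called between genotypes under saline. It was lower in sph/sph (-0.72 ± 0.13, adjusted p = 0.0228), with 36.3, 44.8 and 42.6 CPM in WT and 26.1, 25.3 and 23.7 CPM in sph/sph. The call was lost without WT saline B or C or any 1 of the 3 sph/sph saline libraries (adjusted p 0.0785 to 0.106), and it was -0.84 (adjusted p = 0.145) without the 4 libraries that lack Y-linked counts. Under anti-CD40 Oaz2, named there after its values were seen, was at 34.0, 41.1 and 41.8 CPM in WT and 22.1, 22.0 and 25.9 CPM in sph/sph, a log2 difference of -0.74 ± 0.13 (adjusted p = 0.0044, edgeR).

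**Figure D5:**
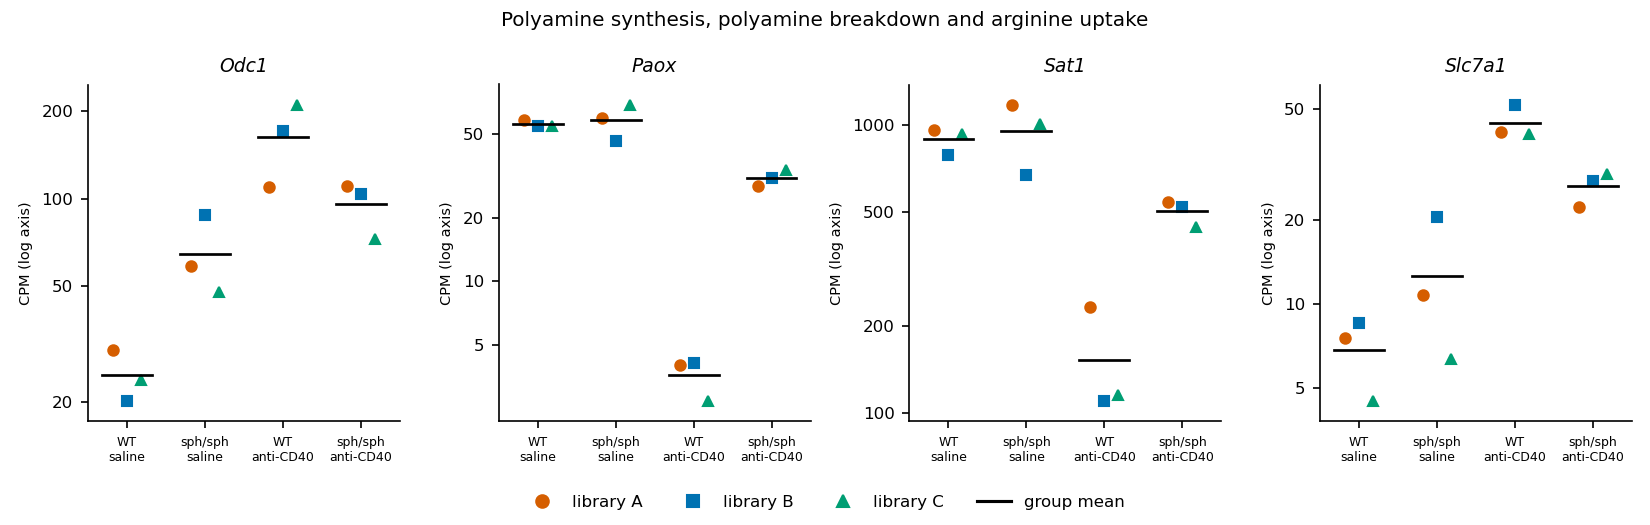
Odc1, Paox, Sat1 and the arginine carrier Slc7a1 in each library, in CPM on log axes, with group means as bars. In WT, Odc1 and Slc7a1 are higher and Paox and Sat1 lower with anti-CD40, and the mean of sph/sph anti-CD40 lies between the means of the WT groups for all 4 genes.

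Of the 5 other genes of polyamine synthesis, 2 rose with anti-CD40 in WT and 0 fell by edgeR, at an unadjusted p under 0.05, by DESeq2 or by limma-voom. By edgeR 19.4% of all genes tested rose in WT and 19.7% fell. Azin1, the antizyme inhibitor that protects ornithine decarboxylase, rose by 0.77 ± 0.16 on the log2 scale (adjusted p = 0.00414, edgeR), and was at 0.72 (adjusted p = 0.0607) without the 4 libraries that lack Y-linked counts. Srm, spermidine synthase, rose by 1.25 ± 0.36 (adjusted p = 0.0191), a call lost without WT saline B, WT saline C or WT anti-CD40 B (adjusted p 0.0578 to 0.0819). Under anti-CD40 2 genes of this list were higher in sph/sph than in WT, Amd1 and Sms, beside 11.5% of all genes tested. Amd1, which makes the aminopropyl donor for spermidine and spermine, was at 19.6, 22.4 and 18.2 CPM in WT anti-CD40 and 28.5, 29.1 and 25.5 CPM in sph/sph anti-CD40. The log2 difference was 0.46 ± 0.12 (adjusted p = 0.0288), lost without WT anti-CD40 A or C or sph/sph anti-CD40 A or B (adjusted p 0.0573 to 0.108) and without the 4 libraries that lack Y-linked counts (0.43, adjusted p = 0.196). For Sms, spermine synthase, it was 0.69 ± 0.21 (adjusted p = 0.0479), which held only without WT anti-CD40 B or sph/sph anti-CD40 C among the 12 fits and was 0.42 (adjusted p = 0.353) without the 4 libraries. Odc1 had the opposite sign in this comparison, uncalled.

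Of all genes tested 19.4% rose and 19.7% fell with anti-CD40 in WT. Of the 4 genes of hypusine formation, the use of spermidine to modify the translation factor eIF5A, 2 rose with anti-CD40 in WT. These were Eif5a itself, by 1.24 ± 0.28 on the log2 scale (adjusted p = 0.0061, edgeR), and Dhps, which performs the first step, by 0.71 ± 0.18 (adjusted p = 0.0115). Their values were 1.31 (adjusted p = 0.0524) and 0.57 (adjusted p = 0.113) without the 4 libraries that lack Y-linked counts. Of 5 tested genes between ornithine and proline, 1 rose and 2 fell with anti-CD40 in WT. The falls were in Oat, ornithine aminotransferase, by 0.83 on the log2 scale (adjusted p = 0.00189) and Aldh18a1, of the path from glutamate to proline and ornithine, by 0.83 (adjusted p = 0.00679). Pycr1, a proline-forming reductase, was the gene that rose (adjusted p = 0.0449). It was at most at 0.967 CPM in any library, and its call held only without sph/sph saline C or sph/sph anti-CD40 C among the 12 fits with 1 library left out. Without the 4 libraries that lack Y-linked counts Pycr1 was at 2.51 (adjusted p = 0.203) and Aldh18a1 at -0.54 (adjusted p = 0.0816). Under anti-CD40 Oat and Aldh18a1 were higher in sph/sph than in WT, by 0.55 ± 0.15 (adjusted p = 0.0282) and 0.73 ± 0.19 (adjusted p = 0.0246). These differences were 0.57 (adjusted p = 0.143) and 0.55 (adjusted p = 0.124) without the 4 libraries. Both calls were also lost without WT anti-CD40 B or C or sph/sph anti-CD40 A or B, and that of Aldh18a1 without WT anti-CD40 A (adjusted p 0.0533 to 0.102).

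The 5 genes of the urea cycle and of creatine synthesis gave 4 falling genes with anti-CD40 in WT and 0 rising by edgeR, at an unadjusted p under 0.05, by DESeq2 or by limma-voom. By edgeR 19.7% of all genes tested fell in WT and 19.4% rose. Otc fell by 3.55 on the log2 scale (adjusted p = 0.00471, edgeR), Cps1 by 3.13 (adjusted p = 0.0164, and 0.136 with the hepatocyte covariate) and Gamt, the second enzyme of creatine synthesis, by 3.53 (adjusted p = 0.000271). Under anti-CD40 Gamt was at 1.40, 1.84 and 1.48 CPM in WT and 4.01, 3.33 and 10.6 CPM in sph/sph, higher by 1.93 ± 0.42 on the log2 scale (adjusted p = 0.0121). That value was 1.53 (adjusted p = 0.0814) with the hepatocyte covariate and 2.07 (adjusted p = 0.0737) without the 4 libraries that lack Y-linked counts. Cps1 lost its call without WT anti-CD40 B (adjusted p = 0.0584) or C (adjusted p = 0.0558). In sph/sph the uncalled changes with anti-CD40 were -1.88 ± 0.69 for Otc (adjusted p = 0.166) and -1.75 ± 0.81 for Cps1 (adjusted p = 0.244). Their differences of sph/sph from WT under anti-CD40 were 1.76 (adjusted p = 0.119) and 2.18 (adjusted p = 0.101). The interactions were 1.67 (adjusted p = 0.39) and 1.38 (adjusted p = 0.569), so a fall particular to WT was not resolved. Gatm, which takes its amidino group from arginine as the first step to creatine, was at 237, 260 and 296 CPM in WT saline and 101, 95.2 and 112 CPM in WT anti-CD40. In sph/sph it was at 158, 136 and 124 CPM in saline and 185, 179 and 105 CPM with anti-CD40. Its interaction was 1.53 ± 0.30 (adjusted p = 0.0188), lost without WT saline C, sph/sph saline B or WT anti-CD40 B (adjusted p 0.0526 to 0.0601) and without the 4 libraries that lack Y-linked counts (1.55, adjusted p = 0.154).

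Over all 8 pathway lists, 48 of 50 genes were tested, since Pycr3 had no match in the table and Oaz3 was under the filter. With anti-CD40 in WT 9 rose (18.8%) and 16 fell (33.3%), beside 19.4% and 19.7% of all genes tested. In sph/sph 1 rose and 0 fell by edgeR, where 6 and 10 had an unadjusted p under 0.05, DESeq2 called 3 and 7 and limma-voom 0 and 1. Under anti-CD40 10 exceeded WT in sph/sph mice (20.8%) and 3 fell short of it (6.25%), beside 11.5% and 6.19% of all genes. Under saline these counts were 0 and 1 (unadjusted 4 and 3, DESeq2 1 and 3, limma-voom 0 and 1). In the interaction 2 were above 0 and 0 below (unadjusted 8 and 3, DESeq2 7 and 1, limma-voom 2 and 0).

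Several of the 8 genes were highest in WT anti-CD40 library A. Of the 8 genes 5 had their highest level of all 12 libraries in it, where 11.3% of all genes tested did, and 3 (Nos2, Arg1 and Slc7a2) exceeded the mean of libraries B and C over 5 times, where 1.32% of all genes did. Odc1 went the other way, at 0.579 times that mean. In sph/sph anti-CD40 library C, Nos2 was at 0.0102 times and Gch1 at 0.492 times the mean of libraries A and B, while Slc7a2 was at 3.49 times. In this library the 6 B cell markers summed to 1904 CPM against 183 and 95.2 CPM in A and B, the monocyte markers to 534 CPM against 2224 and 1511 CPM, the macrophage markers to 7484 CPM against 13829 and 12987 CPM and the endothelial markers to 2084 CPM against 283 and 619 CPM. Their part in these levels was not tested. Both libraries were singled out after their values were seen, and no test was made.

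The genes most like each member were named by Pearson's r of log2 CPM over the 12 libraries, which share the 4 groups, so r reflects differences between groups as well as within them. Nos2 was closest to Tnf (r = 0.99), a cytokine of inflammatory macrophages, Nudt17 (0.99) and Plppr4 (0.99), and Gch1 to Tmem120b (0.97), Tnf (0.95) and Nos2 itself (0.95). Odc1 was closest to Cfap45 (0.96), Tnfrsf9 (0.95), which encodes the costimulatory receptor 4-1BB, and Lrp8 (0.94). Arg1 was closest to Gm43858 (0.92), the epithelial keratin gene Krt8 (0.89) and Pxmp2 (0.87), and Ass1 to Hal (0.84), the histidine-degrading enzyme of liver, Alas1 (0.80) and Krt8 (0.78). Asl was closest to Smlr1 (0.93), Kif21a (0.92) and Ttpa (0.92), the latter encoding the vitamin E transfer protein of hepatocytes. Arg2 was closest to Oxld1 (0.96), Ramac (0.96) and Oxa1l (0.96), and Slc7a2 to Sepsecs (0.94), Gata6 (0.90), a transcription factor of peritoneal macrophages, and Cdk6 (0.89).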

How the data were processed

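Stranded TruSeq libraries of 12 bead-enriched liver macrophage preparations were sequenced, per the labels' protocols. The authors deposited unnormalized read counts per gene in a table with a column for each library. The submitters' processing notes name STAR 2.7.0e, SAMtools 1.9, featureCounts and GRCm38.p5. The annotation, strand setting and treatment of multiple mappings were not given in the sources used here. Columns carry no replicate number. Symbols matched 25587 of 25700 identifiers, and positions are from GENCODE M21 (GRCm38), counted from 1.

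Counts were filtered with filterByExpr, scaled with TMM and fitted with edgeR 4.0.16 in R 4.3.3 (robust quasi-likelihood fit of all 12 libraries, a mean per group). Calls were made at a Benjamini-Hochberg adjusted p under 0.05 over the 13844 genes left. The biological coefficient of variation was 0.382. Each SE is the size of the log2 fold over the root of its F statistic. The fitting code was tested on simulated data. Alternatives were DESeq2 1.42.0, limma-voom (limma 3.58.1), DESeq2's size factors in edgeR, no filter, the log2 hepatocyte marker sum or a term for sex (from Y-linked counts) as a covariate, only the groups compared, total counts for CPM, and each library left out. Added after the data were seen were the fit without the 4 libraries that lack Y-linked counts, a fit with a term for each number shared by 2 column names, and lengths of the longest coding transcript.

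The 8 genes, the 8 pathway lists (50 genes) and the marker lists were chosen with earlier results of these data known. Named genes are the 8 in every comparison, up to 3 called genes per pathway list and comparison by size of fold, Cps1 and Otc, and for each of the 8 the 3 tested genes that correlate best with it. Few counts limit the precision for low genes such as Nos2 in saline.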

Additional observations from a re-analysis of the deposited data

Results flagged for a closer look

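The response to anti-CD40 differed between genotypes, by edgeR's test of the interaction, for 3 of the genes described. They were 1 of the 8 genes and 2 of the 48 pathway genes tested (4.17%), beside 4.3% of all genes tested. For Odc1 the log2 interaction was -2.16, from a rise in WT and an uncalled change in sph/sph. Its saline level was already higher in sph/sph, at 47.7 to 87.9 CPM against 20.2 to 30.2 CPM in WT. The Odc1 call was lost without WT saline B, WT saline C or WT anti-CD40 B. It was also lost without the 4 libraries that lack Y-linked counts. For Paox it was 3.05, from a fall in WT to below 5 CPM against 28.4 to 33.7 CPM in sph/sph anti-CD40. For Gatm it was 1.53. Gatm was at 237 to 296 CPM in WT saline and 124 to 158 CPM in sph/sph saline. With anti-CD40 it was at 95.2 to 112 CPM in WT and 105 to 185 CPM in sph/sph. The genotypes thus lay apart under saline and overlapped under anti-CD40. The Gatm call was lost without WT saline C, sph/sph saline B or WT anti-CD40 B, and without the 4 libraries that lack Y-linked counts.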

How the results depend on the processing

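No paired analysis was possible because the columns of the count table carry no replicate number and the genotypes share only 1 number of another kind under each treatment. A fit with a term for each of these 2 shared numbers, added after the data were seen, gave 0 of the 8 genes under saline instead of 1 and 1 gene in sph/sph instead of 108. All 4 calls for anti-CD40 in WT kept their direction in every alternative run and their side of the threshold in the 12 fits that left out 1 library each. Among the other alternatives, the calls lost were Nos2 with limma-voom and Arg2 and Gch1 without the 4 libraries that lack Y-linked counts. Of the results for other pathway genes, 18 lost their call without these 4 libraries, 16 with the hepatocyte covariate, 10 in fits of only the groups compared, 6 with the terms for shared numbers and 4 with limma-voom. With 3 libraries per group and a wide spread, differences of the size seen for Slc7a2, Arg1 and Nos2 between genotypes were not resolved by the main edgeR fit. Under anti-CD40, DESeq2 and limma-voom called that of Nos2, and the fit with the hepatocyte covariate called that of Slc7a2. Scaling CPM by total counts moved each mean level of the 8 genes by less than the SD of its group. Where a value changed, the cause was not tested.

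Called among the 8 genes under saline were 0 with DESeq2's size factors, 0 with the hepatocyte covariate, 0 with the term for sex and 0 without the 4 libraries that lack Y-linked counts, instead of 1. For anti-CD40 in sph/sph DESeq2 called 2 instead of 0. For the genotypes under anti-CD40 the hepatocyte covariate gave 1, DESeq2 2 and limma-voom 1 instead of 0, and the interaction without the 4 libraries gave 0 instead of 1. With 1 library left out these counts ran from 0 to 1 under saline, 4 to 5 for anti-CD40 in WT, 0 to 2 in sph/sph, 0 to 1 under anti-CD40 and 0 to 1 for the interaction.

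Over all genes, the calls were 282 under saline, 5420 for anti-CD40 in WT, 108 in sph/sph, 2455 between genotypes under anti-CD40 and 595 for the interaction. DESeq2 gave 831, 6320, 1372, 3391 and 1393. Fitting only the groups compared gave 891 under saline, 0 in sph/sph and 735 under anti-CD40. The hepatocyte covariate gave 3400 in WT, 67 in sph/sph and 1460 under anti-CD40. Without the 4 libraries they were 13, 2845, 0, 1174 and 153. With 1 library left out they ran from 73 to 539, 3841 to 6583, 0 to 2372, 1355 to 3408 and 259 to 944.

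Uncalled log2 values changed sign as follows. Under saline, Nos2 was 0.15 with the term for sex and 0.85 without the 4 libraries, Slc7a2 0.016 without them, Ass1 -0.050 with the hepatocyte covariate and -0.17 with limma-voom, Arg2 -0.013 and Otc -0.0025 with limma-voom. For anti-CD40 in WT, Arg1 was 0.69 with the hepatocyte covariate and Ass1 -0.47 without the 4 libraries. Between genotypes under anti-CD40, Arg1 was 0.36 with limma-voom and 1.72 without the 4 libraries, and Slc7a2 0.17 without them. For the interaction, Arg1 was 0.14 and Asl 0.0072 with limma-voom, and Arg1 0.98, Asl 0.031 and Slc7a2 0.16 without the 4 libraries. With the terms for shared numbers, Ass1 was -0.17 under saline and -0.58 in WT, Otc -0.020 under saline, Arg1 0.55 under anti-CD40 and 0.32 in the interaction, and Asl 0.042 in the interaction. With 1 library left out, the range for Arg1 was -2.57 to 0.37 in WT, -1.29 to 1.68 under anti-CD40, -0.083 to 0.81 under saline and -1.69 to 1.26 for the interaction. Under saline it was -0.35 to 0.35 for Arg2, -0.40 to 0.43 for Ass1, -0.13 to 0.27 for Gch1, -1.24 to 0.54 for Nos2 and -0.36 to 0.42 for Otc. It was -0.52 to 0.57 for Ass1 in WT, -0.31 to 1.20 for Slc7a2 in sph/sph, and -0.35 to 0.25 for Asl and -2.01 to 0.36 for Slc7a2 in the interaction. The mean share of Nos2 in Nos2 plus Arg1 in WT anti-CD40 was 68.9% by the longest coding transcript.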
